A study of Sus scrofa with 12 samples.

Results

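The genes described here sense cholesterol in the liver cell, move it out of the cell, or exchange it with high-density lipoprotein (HDL). They are INSIG1, SREBF2, ABCA1, ABCG1, ABCG5, ABCG8, SCARB1 and LCAT, and they were taken from the deposited table by exact match of the gene symbol. All 8 symbols had a row among the 31694 rows of the table. Of these, 6 had values above 0, and SREBF2 and LCAT were listed at 0 in every library. Liver was taken from 3 Jinhua (JH) and 3 Landrace (LD) pigs, all uncastrated males of 70 days of age and with no treatment named. JH is a Chinese indigenous breed that grows slowly and lays down much fat, and LD is a fast growing lean breed, and the study compared their livers to find transcripts that differ between such breeds. Each pig gave 1 mRNA library, with values in RPKM (reads scaled to gene length and to the reads of the library), and 1 small RNA library, with values in RPM (reads scaled to the clean reads of the library). Whole liver was used, so fewer cells of a type and less RNA per cell cannot be told apart.

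The cell holds its cholesterol within limits through a pair of sensors. When sterols in the endoplasmic reticulum are low, the transcription factor SREBP-2, the product of SREBF2, is escorted to the Golgi by SCAP, cleaved, and sent to the nucleus, where it raises the genes of cholesterol synthesis and uptake. INSIG1 holds SCAP and SREBP-2 back when sterols are ample, and its own transcription is raised by SREBPs. When sterols are in excess, oxysterols activate the liver X receptors (LXRs), which raise the ABC transporters. In the hepatocyte ABCA1 loads cholesterol and phospholipid onto apolipoprotein A-I to start an HDL particle, ABCG1 serves efflux to HDL in macrophages and other cells, and ABCG5 and ABCG8 form 1 heterodimer that secretes sterols into bile. SCARB1 (SR-BI) takes up cholesterol ester from HDL, and LCAT is the plasma enzyme that esterifies cholesterol on HDL.

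The RPKM had been divided by totals of 5744909 (JH1) to 7914515 (LD3) reads, as recovered from the values. The paper reports more clean reads than this for every mRNA library. RPKM at or above 0.5 in at least 3 libraries were found for 12993 genes, which were tested together with limma on log2(RPKM + 0.1), and every fold change below is JH over LD on that scale. A call required a Benjamini-Hochberg adjusted p, over all 12993 genes, under 0.05 together with a log2 fold change past 1 in either direction. Hepatocyte markers were high in every library, with a summed RPKM of 41256 to 48127 in JH and 54764 to 69641 in LD over 7 markers with a row, 0 of which were called. The pancreas markers with a row were at 0 throughout, and the 7 intestine markers with a row summed to at most 1.91 RPKM in any library, with SI and ALPI at 0 and CDX2, the 1 that was tested, called higher in JH, a call lost whichever library was left out (adjusted p of 0.0678 to 0.155, limma). The CDX2 call was also lost with a pseudocount of 0.01 (adjusted p = 0.142, limma) and with the replicate number as a factor (0.0704). The ribosomal RNA gene RN18S stood apart in JH3, at 62257 RPKM against 1570 to 20160 in the other 5 libraries. Nothing in the labels says more of how the pigs were kept, and the p-values measure the spread between these 6 animals only.

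Of the 6 measured genes 0 were called, against 2.39% of all tested genes called in either direction. All 6 had a log2 fold change below 0, as had 47.1% of all tested genes, and their median was -0.86 beside 0.04 for all tested genes. An unadjusted p below 0.05, in limma, was reached by 4 of them, INSIG1, ABCA1, ABCG5 and ABCG8, each lower in JH, against 9.51% of all tested genes in that direction and 8.35% in the other. This count fell to 2 when JH3 or when LD2 was left out, and it was 3 without any other library. With all libraries kept, it was 3 with a pseudocount of 0.01, without a filter or with a minimum RPKM of 1. INSIG1 was the gene lost in each of these fits. After median scaling and with the replicate number as a factor the count was 4, with SCARB1 in place of INSIG1. After quantile normalization it was 5, with both included. The 3 JH values lay wholly below the 3 LD values for ABCA1, ABCG5 and ABCG8, which was the case for 12.5% of all tested genes. The lowest adjusted p of any of the 6 genes over 15 fits was 0.061, for ABCG8 after quantile normalization.

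**Figure D1:**
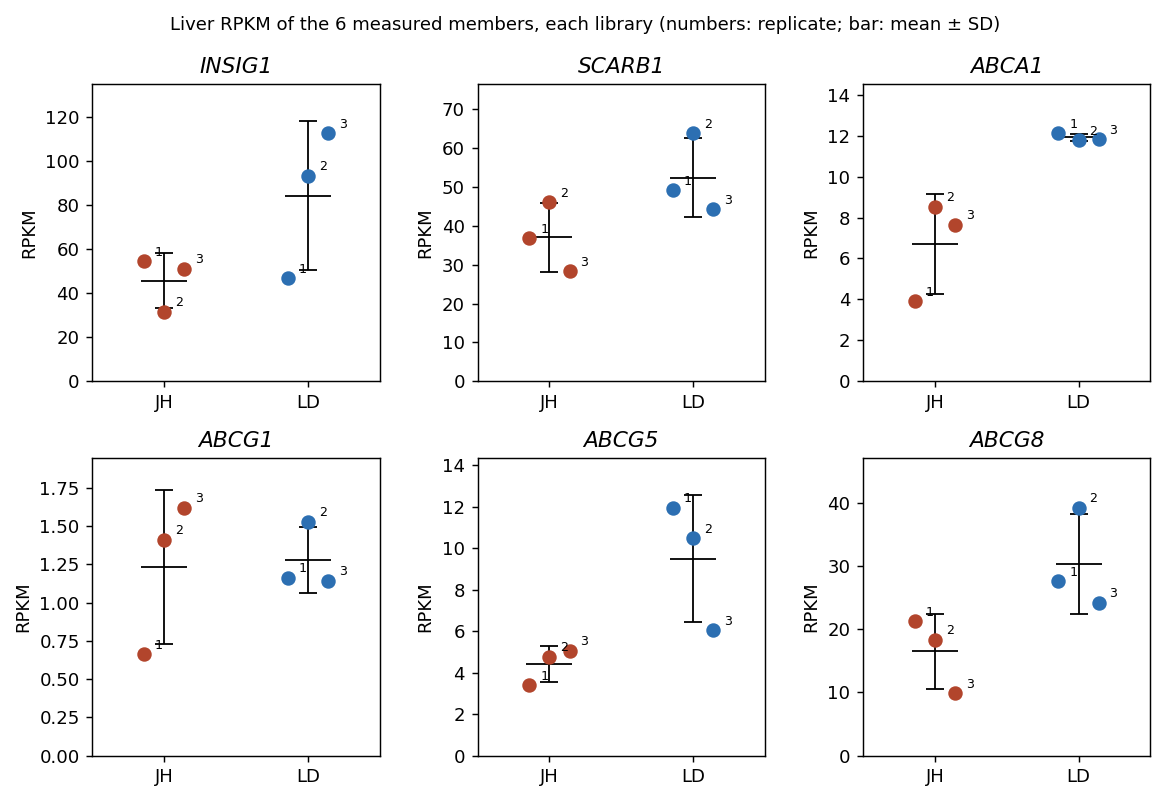
RPKM (vertical axes, each from 0) of the 6 measured genes in the 3 JH and 3 LD mRNA libraries, with replicate numbers beside the points and bars for the mean ± SD. JH and LD points do not overlap for ABCA1, ABCG5 and ABCG8, and they overlap for INSIG1, SCARB1 and ABCG1.

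INSIG1, the sterol-dependent anchor of SCAP, was the most abundant of the 6 in RPKM, which is scaled to gene length. Its level was 54.5, 31.6 and 51.1 RPKM in JH1, JH2 and JH3 and 46.9, 93.4 and 112.6 RPKM in LD1, LD2 and LD3. LD2 and LD3 stood above all JH libraries, while LD1 fell within the JH range, so the groups overlapped. The means were 45.7 ± 12.4 RPKM (SD, n = 3) in JH and 84.3 ± 33.8 RPKM (SD, n = 3) in LD. The log2 fold change was -0.83 (standard error 0.37), and its 95% confidence interval, from -1.65 to -0.00021, reached almost to 0. In limma this gave an unadjusted p of 0.04995 and an adjusted p of 0.28, and the two-sided exact permutation test gave 0.3, where 3 pigs against 3 cannot go below 0.1. Between 695 and 2528 reads stood behind each INSIG1 value, so counting error was at most 3.79% of a value, far under the spread between pigs.

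No other sterol sensing gene was called. Of 12 listed partners of INSIG1 in sensing and regulated breakdown, 10 had a row, 8 were tested and all 8 were not called, with a median log2 fold change of -0.06. SCAP, the escort, was at 8.01 to 13.5 RPKM in JH and 6.15 to 14.8 RPKM in LD, with a log2 fold change of 0.25 (adjusted p = 0.756, limma). The 2 partners with the lowest p were ERLIN2 and ERLIN1, endoplasmic reticulum membrane proteins that bind the INSIG-SCAP complex. ERLIN2 gave a log2 fold change of -0.56 (adjusted p = 0.321, limma) and ERLIN1 gave -0.28 (adjusted p = 0.545, limma). SCAP was singled out after its values were seen.

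SREBF2 was listed at 0 in all 6 libraries. SREBF1, which encodes the related factor of fatty acid synthesis, was listed at 0 as well. A value of 0 in every library was shared by 12080 of the 31694 rows (38.1%), and among 14 widely used genes looked at B2M, HPRT1 and SDHA were also at 0. No level of SREBF2 is therefore given.

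The enzymes of cholesterol synthesis, the main targets of SREBP-2, mostly had values below those of LD. Of 20 listed enzymes 17 had a row and were tested, and 16 of these had a log2 fold change below 0, with a median of -1.20. Of the 17, 2 were called lower and 0 higher, against 1.36% and 1.02% of all tested genes, and 10 were lower at an unadjusted p below 0.05. Over all tested genes 47.1% were below 0 and 9.51% were lower at that p. TM7SF2, a sterol reductase of the late pathway, was at 116, 122 and 136 RPKM in JH and at 268, 577 and 302 RPKM in LD. All JH values lay below all LD values, and the fold change was -1.54 ± 0.31 (SE) in log2 (adjusted p = 0.042, limma). EBP, the sterol isomerase, was at 132, 109 and 130 RPKM in JH and at 267, 362 and 235 RPKM in LD. These groups were also apart, at -1.20 ± 0.25 (SE) in log2 (adjusted p = 0.0459, limma). SC5D, the sterol desaturase, and IDI1, the isomerase of isopentenyl diphosphate, missed the threshold with log2 fold changes of -1.29 (adjusted p = 0.066, limma) and -2.42 (adjusted p = 0.0705, limma), and IDI1 was low throughout, at 0.125 to 3.94 RPKM. SC5D passed without JH3 (adjusted p = 0.049) and in voom (0.0349), and IDI1 passed without JH2 (0.0334) and with a pseudocount of 1 (0.0377), all in limma.

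The calls of both called enzymes held without JH3 and were lost without any other library. For TM7SF2 the adjusted p in limma was 0.105 without JH1, 0.112 without JH2, 0.0877 without LD1, 0.106 without LD2 and 0.0845 without LD3. For EBP it was 0.0941, 0.142, 0.14, 0.16 and 0.0849 in the same order. Both calls were also lost with a pseudocount of 0.01 (0.053 for TM7SF2 and 0.0551 for EBP) and without a filter on low values (0.0662 and 0.0652).

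The pigs were not ranked alike by INSIG1 and by the summed enzymes. In LD the summed RPKM of the 17 enzymes was 3220, 3900 and 2470 for LD1, LD2 and LD3. LD3, highest for INSIG1, was thus lowest for this sum. The sum is weighted toward abundant enzymes, and not every single enzyme was lowest in LD3. In JH the sums were 1296, 1348 and 2152 for JH1, JH2 and JH3, and JH3 stood well above the other pair. HMGCS1, a synthase early in the pathway, was at 20.4, 88.2 and 260.1 RPKM in JH and at 245, 274 and 132 RPKM in LD. JH3 thus lay within the LD range for HMGCS1, while INSIG1 in JH3 lay close to JH1. HMGCS1 was singled out after its values were seen, and it was not called (adjusted p = 0.373, limma).

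**Figure D2:**
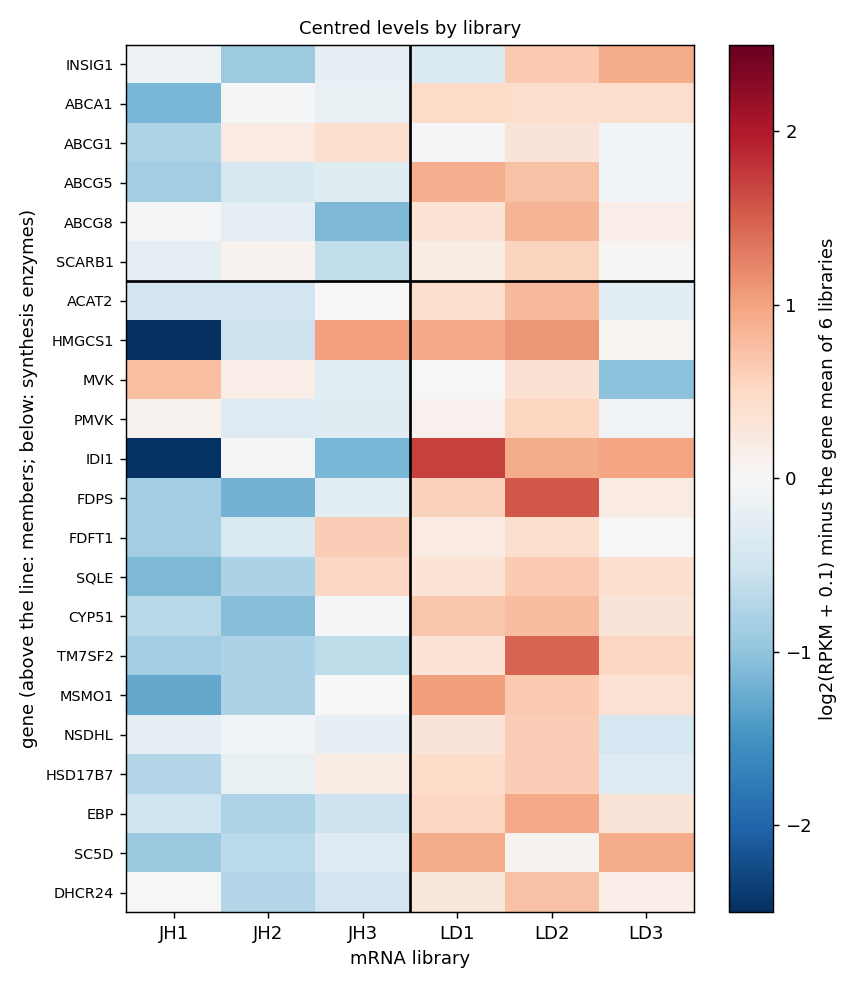
log2(RPKM + 0.1) minus the mean of the gene over the 6 libraries (colour, red above and blue below the mean) for the 6 measured genes above the line and 16 of the synthesis enzymes below it, in 6 mRNA libraries. Values beyond 2.5 on either side share the end colours, and JH3 is at or above the mean for HMGCS1, FDFT1 and SQLE, unlike JH1 and JH2.

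ABCA1, which starts the HDL particle, had the narrowest LD group of the 6 genes. It was at 3.91, 8.53 and 7.65 RPKM in JH and at 12.1, 11.8 and 11.8 RPKM in LD, so that every JH library was below every LD library and JH1 was the lowest. The means were 6.70 ± 2.46 RPKM (SD, n = 3) in JH and 11.9 ± 0.179 RPKM (SD, n = 3) in LD. The level in LD was 1.86-fold that in JH, with a 95% confidence interval of 1.14 to 3.04, and the log2 fold change was -0.90 (standard error 0.31). The adjusted p was 0.182 in limma (unadjusted 0.0185), and the exact permutation p was 0.1, the smallest possible. Without JH1 the log2 fold change was -0.55. Between 138 and 576 reads stood behind each value.

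ABCG1, the other efflux transporter toward HDL, was the least abundant of the 6, at the 17.7th percentile of mean RPKM among tested genes. Its values were 0.663, 1.41 and 1.62 RPKM in JH and 1.16, 1.53 and 1.14 RPKM in LD. The LD values lay inside the JH range, and the log2 fold change was -0.12, with a 95% confidence interval of -1.02 to 0.78 (adjusted p = 0.906, limma). The interval does not exclude a change of the size seen in ABCA1. The lowest library, JH1, held 24 reads of ABCG1, for which counting alone gives an exact Poisson interval of 15.4 to 35.7 reads. The sign was not stable, since it was 0.05 after quantile normalization, 0.24 without JH1 and 0.0047 without LD2.

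ABCG5 and ABCG8, which together form the biliary sterol transporter, were both below the LD range in all 3 JH libraries. ABCG8 was at 21.3, 18.3 and 9.91 RPKM in JH and at 27.6, 39.2 and 24.2 RPKM in LD, with the lowest value in JH3 and the highest in LD2. The means were 16.5 ± 5.90 RPKM (SD, n = 3) in JH and 30.3 ± 7.89 RPKM (SD, n = 3) in LD. The level in LD was 1.88-fold that in JH (95% confidence interval 1.12 to 3.18), which is -0.91 ± 0.34 (SE) in log2 (adjusted p = 0.196, limma). Without JH3 it was -0.59.

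ABCG5 was at 3.41, 4.77 and 5.07 RPKM in JH and at 11.97, 10.49 and 6.06 RPKM in LD, so LD3 came within 1 RPKM of JH3. The means were 4.42 ± 0.883 RPKM (SD, n = 3) in JH and 9.50 ± 3.08 RPKM (SD, n = 3) in LD. The log2 fold change of -1.05 (standard error 0.32) was the only one of the 6 past 1 in size, and its adjusted p was 0.13 in limma (unadjusted 0.00845). It rested on few reads, 9, 17 and 18 in JH and 39, 38 and 22 in LD, and the 9 reads of JH1 have an exact Poisson interval of 4.12 to 17.1. The gene model behind ABCG5 was inferred to be 459 bases long, beside 2504 bases for ABCG8, so the level of ABCG5 in RPKM describes a short model. The exact permutation p was 0.1 for each gene.

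Both genes lie side by side in the RefSeq order of genes of Sscrofa11.1, a later build than the one the reads were aligned to. The genes next to the pair were not called, with log2 fold changes of 0.15 for LRPPRC beside ABCG8 (adjusted p = 0.83, limma) and 0.09 for DYNC2LI1 beside ABCG5 (adjusted p = 0.907, limma). The ratio of ABCG5 to ABCG8 RPKM was 0.16, 0.261 and 0.511 in JH and 0.434, 0.267 and 0.251 in LD. The JH pigs spanned the LD range on both sides, so the groups overlapped. The difference in mean log2 ratio, JH minus LD, was -0.15, with an exact permutation p of 0.9, and it turned to 0.25 without JH1 and to 0.10 without LD1.

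SCARB1, the HDL receptor, was second to INSIG1 in abundance. It was at 36.8, 46.1 and 28.4 RPKM in JH and at 49.1, 63.8 and 44.3 RPKM in LD, and only JH2 rose above the lowest LD library. The means were 37.1 ± 8.88 RPKM (SD, n = 3) in JH and 52.4 ± 10.2 RPKM (SD, n = 3) in LD. The log2 fold change was -0.51 (95% confidence interval -1.12 to 0.10), with an adjusted p of 0.365 in limma and an exact permutation p of 0.2. Without JH3 it was -0.33. LCAT was listed at 0 in all 6 libraries, as was PSMB10, its neighbour on one side in the RefSeq order, and no level of LCAT is given. SLC12A4, its neighbour on the other side, was low but above 0 in every library, at 0.501 to 0.810 RPKM in JH and 0.328 to 0.589 RPKM in LD.

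**Figure D3:**
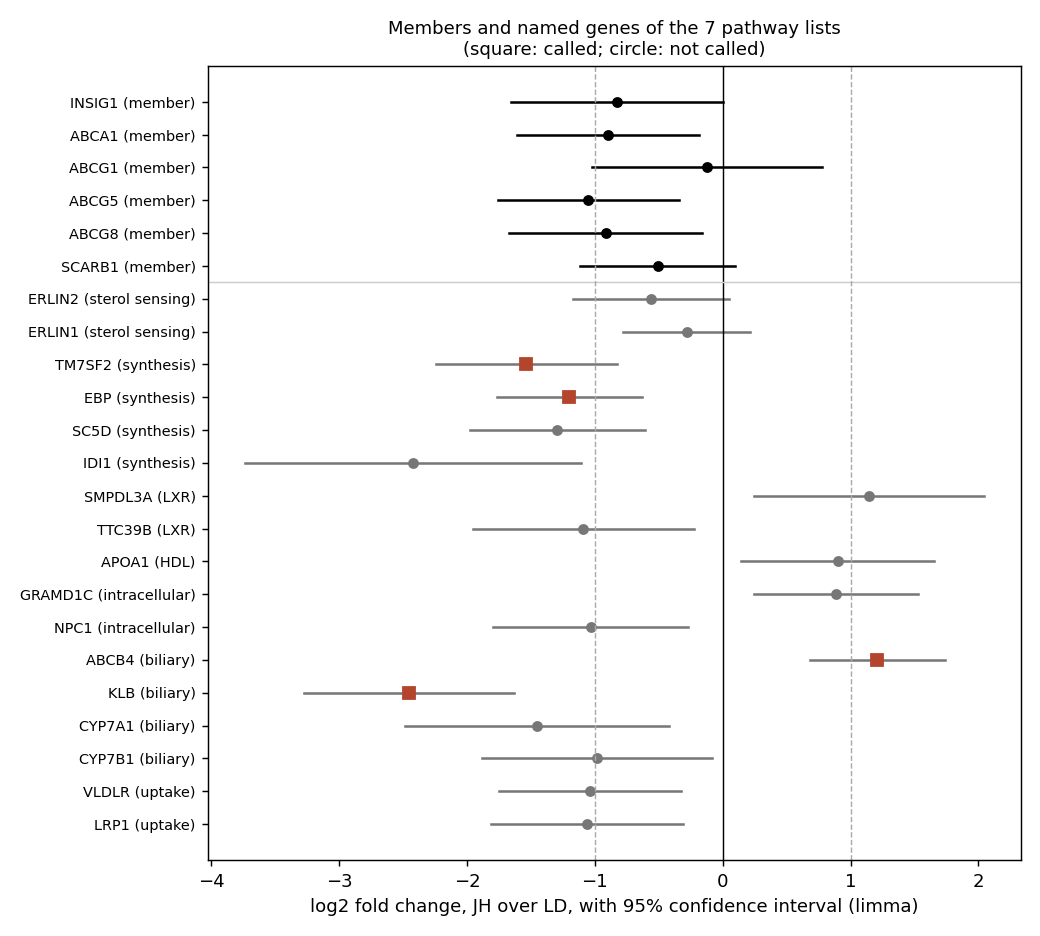
log2 fold change of JH over LD with its 95% confidence interval (horizontal axis) for the 6 measured genes at the top and named genes of 7 pathway lists below, with dashed lines at -1 and 1. None of the 6 is called, and the called genes (squares) are TM7SF2, EBP and KLB on the lower side and ABCB4 on the higher side.

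The order of mean levels per length was INSIG1, SCARB1, ABCG8, ABCA1, ABCG5 and ABCG1 in both breeds. Neighbours in this order whose ranges over pigs overlapped were INSIG1 and SCARB1 in both breeds and ABCA1 and ABCG5 in both breeds. The other neighbours were apart in each breed. Among the 15 pairs of the 6 genes, Pearson's r of log2(RPKM + 0.1) over the 6 libraries was highest for ABCG8 with SCARB1 (0.93) and ABCA1 with ABCG5 (0.83). It was 0.61 for ABCG5 with ABCG8, and INSIG1 gave -0.02 to 0.47 with the others. These points include the breed difference itself and share each library's scaling.

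The tested genes whose profiles over the 6 libraries were most like each of the 6, by Pearson's r, are a description from 6 points among 12992 candidates. They were GAB2 (0.97) for INSIG1, SLC39A6 (0.994) for ABCA1, ZFAND3 (0.983) for ABCG1, and COL15A1 (0.993), FBXO21 (0.989) and RAB40B (0.989) for ABCG5. For ABCG8 they were GIPC1 (0.999) and KAZALD1 (0.989), and for SCARB1 they were MAML1 (0.993), S1PR3 (0.99) and ACTN1 (0.99). The rest of each top 3 had no gene name, with LOC102160098 and LOC100738753 for INSIG1, LOC102161795 and LOC100739654 for ABCA1, LOC102165769 and LOC102161624 for ABCG1, and LOC100515348 for ABCG8. An r of 0.9 or more was reached by 52 (ABCG1) to 358 (ABCG8) genes.

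The LXR list holds the receptors that raise ABCA1, ABCG1, ABCG5 and ABCG8, some of their other targets, and TTC39B, which acts on the receptors. Of 10 listed genes 8 were tested and 0 were called, with a median log2 fold change of -0.30. NR1H3, the LXR of the liver, was at 56.6 to 81.4 RPKM in JH and 49.0 to 71.0 RPKM in LD (log2 fold change 0.18, adjusted p = 0.757, limma), and it was singled out after its values were seen. The 2 lowest p belonged to genes of the list that went opposite ways. SMPDL3A, a phosphodiesterase, had a log2 fold change of 1.14 (adjusted p = 0.181, limma), and TTC39B, a scaffold protein that promotes LXR breakdown, had one of -1.09 (adjusted p = 0.183, limma).

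Of 10 listed HDL genes 9 were tested and 0 were called, with a median of 0.08. APOA1, which encodes the protein that ABCA1 loads, was at 22277, 16075 and 10301 RPKM in JH and at 7613, 10116 and 7399 RPKM in LD, so that JH3 lay just above LD2. Its log2 fold change was 0.90, the opposite sign to ABCA1, with an adjusted p of 0.203 in limma.

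Biliary genes surround ABCG5 and ABCG8 at the canalicular membrane and in bile acid synthesis. Of 14 listed genes 11 were tested, 1 was called higher and 1 lower, against 1.02% and 1.36% of all tested genes, with a median of -0.38. ABCB4, the canalicular phospholipid floppase, rose in JH, at 27.2, 20.4 and 20.6 RPKM against 9.77, 10.2 and 9.09 RPKM in LD. The groups were far apart by 1.21 ± 0.23 (SE) in log2 (adjusted p = 0.0364, limma). The log2 fold changes of ABCG5 and ABCG8 were below 0, and neither was called. KLB, the coreceptor through which FGF19 represses bile acid synthesis, fell to 3.12, 1.95 and 4.35 RPKM in JH against 11.2, 22.4 and 18.9 RPKM in LD. In log2 this was -2.45 ± 0.36 (SE), with an adjusted p of 0.0125 in limma.

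CYP7A1, the rate-limiting enzyme of bile acid synthesis, was at 6.68, 12.9 and 28.5 RPKM in JH and 31.5, 44.8 and 36.2 RPKM in LD. The ranges did not overlap but JH3 came close to LD1, and the log2 fold change was -1.45 (adjusted p = 0.147, limma). Without JH3 it was -1.99 and passed (adjusted p = 0.0236, limma), and without JH1 it was -0.95. CYP7B1, of the alternative bile acid pathway, gave -0.98 (adjusted p = 0.242, limma). The call of ABCB4 was lost without any library but JH3, with an adjusted p in limma of 0.106 without JH1, 0.0817 without JH2, 0.126 without LD1, 0.107 without LD2 and 0.109 without LD3. That of KLB was lost without LD2 only (0.0531).

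Among other genes of sterol handling, 14 of 16 listed genes of intracellular transport, esterification and hydrolysis were tested and 0 were called, with a median of 0.0069. GRAMD1C, of a family that carries sterol from the plasma membrane, gave 0.89 (adjusted p = 0.15, limma), and NPC1, which exports cholesterol from lysosomes, gave -1.03 (adjusted p = 0.161, limma), and -1.37 without JH3, where it passed (adjusted p = 0.0479, limma). All 10 listed uptake receptors beside SCARB1 were tested and 0 were called, with a median of -0.31. VLDLR gave -1.04 (adjusted p = 0.135, limma) and LRP1, a remnant receptor, gave -1.06 (adjusted p = 0.145, limma). Over the 7 pathway lists 76 distinct genes were tested, with 1 called higher and 3 called lower, against the same 1.02% and 1.36%.

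Some markers of liver cells were lower in JH, the side on which the values of the 6 genes lay. Of the 7 hepatocyte markers 6 had a log2 fold change below 0 and 1 above it, with a median of -0.20, and 0 were called. All 8 stellate cell and fibroblast markers had a log2 fold change below 0, with a summed RPKM of 84.7 to 104 in JH and 195 to 389 in LD. COL1A1, COL1A2 and COL3A1 were called lower in JH. Over all tested genes 47.1% had a log2 fold change below 0, and 1.36% were called lower in JH. Leaving out each library in turn kept the call of COL1A1. That of COL1A2 was lost without JH1 (adjusted p = 0.116), JH3 (0.0688), LD1 (0.146) or LD2 (0.147), and that of COL3A1 without LD1 (0.0811) or LD2 (0.0674), all in limma. Of 5 bile duct markers 3 had a row, with sums of 1.55 to 2.13 RPKM in JH and 5.24 to 9.64 RPKM in LD, and EPCAM was called lower, which held without JH3 only (adjusted p of 0.0435 to 0.111, limma). For macrophages, which express ABCA1 and ABCG1, 0 of 8 tested markers were called, and the sums were 1028 to 2217 RPKM in JH and 1530 to 1762 RPKM in LD, with CD163 at 0. Of 7 endothelial markers with a row 0 were called, with sums of 179 to 294 RPKM in JH and 246 to 312 RPKM in LD, most of it from CLEC4G at 109 to 213 RPKM. Of these 7, 6 had a log2 fold change below 0, with a median of -0.66. PECAM1, VWF, KDR and ENG had every JH value below every LD value, as had 12.5% of all tested genes. Of 7 lymphocyte markers 0 were called, and JH2 had the highest sum, at 111 RPKM against 25.2 to 43.0 RPKM in the other libraries. Of 3 tested erythroid markers 1, HBB, was called lower, which held without JH3 only (adjusted p of 0.0423 to 0.143, limma), with sums over 5 rows of 92.3 to 124 RPKM in JH and 216 to 398 RPKM in LD. With all libraries kept, the call of HBB was lost with a pseudocount of 0.01 (adjusted p = 0.056, limma) and without a filter (0.0673). It was also lost with the replicate number as a factor (0.0527). The call of COL1A2 was lost with a pseudocount of 0.01 (0.0553) and without a filter (0.0652), and that of EPCAM without a filter (0.0592). The part of these markers in the values of the 6 genes was not tested.

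The small RNA libraries, with 10672375 to 13932322 clean reads, gave the levels of 23 listed miRNAs known to repress ABCA1, ABCG1 or SCARB1 in other species. Of these 19 were tested among 241 miRNAs, with limma on log2(RPM + 0.5), and ssc-miR-33a, ssc-miR-33b, ssc-miR-106b and ssc-miR-223 had no row. For miRNAs a call required an unadjusted p under 0.05 with a log2 fold change past 1 in size, which 12.4% of tested miRNAs met, 10.4% lower and 2.07% higher in JH. Of the 19, 4 were called lower in JH and 0 higher, and 2 of the 4, ssc-miR-34a and ssc-miR-145-5p, had an adjusted p below 0.05. Of all 241 tested miRNAs, 23 met the call with an adjusted p, 21 lower and 2 higher in JH. The JH values lay wholly below the LD values for 7 of the 19, against 29.9% of all tested miRNAs, and wholly above them for 0, against 3.73%. The median log2 fold change was -0.25, beside -0.30 for all tested miRNAs, so each value below is also given relative to the library medians where that changes the call.

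Of the miRNAs known to repress ABCA1, ssc-miR-34a was at 6.02, 8.85 and 4.50 RPM in JH and 45.0, 44.1 and 64.2 RPM in LD. The groups were far apart, by -2.92 ± 0.28 (SE) in log2 (adjusted p = 7.4e-05, limma), and the value was -2.52 after median scaling. ssc-miR-145-5p was at 786, 854 and 1077 RPM in JH and 2353, 1661 and 2011 RPM in LD, with a log2 fold change of -1.15 (adjusted p = 0.0118, limma), and of -0.75 after median scaling, where it was no longer called. Its adjusted p was 0.0541 without LD1 and 0.0534 without LD3, in limma. ssc-miR-758 was at 0, 0.82 and 0.937 RPM in JH and 1.87, 1.89 and 3.52 RPM in LD (log2 fold change -1.53, adjusted p = 0.0579, limma), and after median scaling it gave -1.13 and was no longer called. With a value of 0 in JH1 its size depended on the pseudocount, at -0.41 with a pseudocount of 5, where it was not called, and -2.98 in voom. The smallest listed value was worth 10 reads in each library, so JH1 may have had reads below that, and the 3 LD values stood for 25, 24 and 49 reads.

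The most abundant of the 19 was ssc-miR-148a-3p, known to repress ABCA1, at 330913, 204398 and 252172 RPM in JH and 206781, 142171 and 208005 RPM in LD. The groups overlapped, with a log2 fold change of 0.49 (95% confidence interval -0.02 to 1.01, adjusted p = 0.191, limma), and after median scaling it was 0.89 (adjusted p = 0.0314, limma), still under 1. ssc-miR-144 gave 0.69 (adjusted p = 0.284, limma), and it was called at 1.06 after quantile normalization, 1.09 after median scaling and 1.09 without JH2. Without JH1, which was at 25.1 RPM against 6.72 and 10.03 RPM in JH2 and JH3, it was 0.18.

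Of the miRNAs known to repress SCARB1, ssc-miR-96-5p was called lower in JH, at 1.03, 1.07 and 0 RPM against 3.67, 1.97 and 2.44 RPM in LD, all of these under 50 reads. Its log2 fold change was -1.55 (adjusted p = 0.0579, limma), and after median scaling it was -1.16 and no longer called. With a value of 0 in JH3 its size also depended on the pseudocount, at -0.43 with a pseudocount of 5, where it was not called, and -2.67 in voom. ssc-miR-185 gave -0.70 (adjusted p = 0.0644, limma) and ssc-miR-125a gave -0.64 (adjusted p = 0.107, limma), both with every JH value below every LD value. After median scaling ssc-miR-185 gave -0.30 (adjusted p = 0.418, limma) and ssc-miR-125a gave -0.24 (adjusted p = 0.4999, limma). The remaining 11, ssc-miR-148b-3p, ssc-miR-27a, ssc-miR-27b-3p, ssc-miR-128, ssc-miR-106a, ssc-miR-20a, ssc-miR-20b, ssc-miR-26a, ssc-miR-19b, ssc-miR-10b and ssc-miR-455-5p, lay between -0.34 and 0.03 and were not called.

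**Figure D4:**
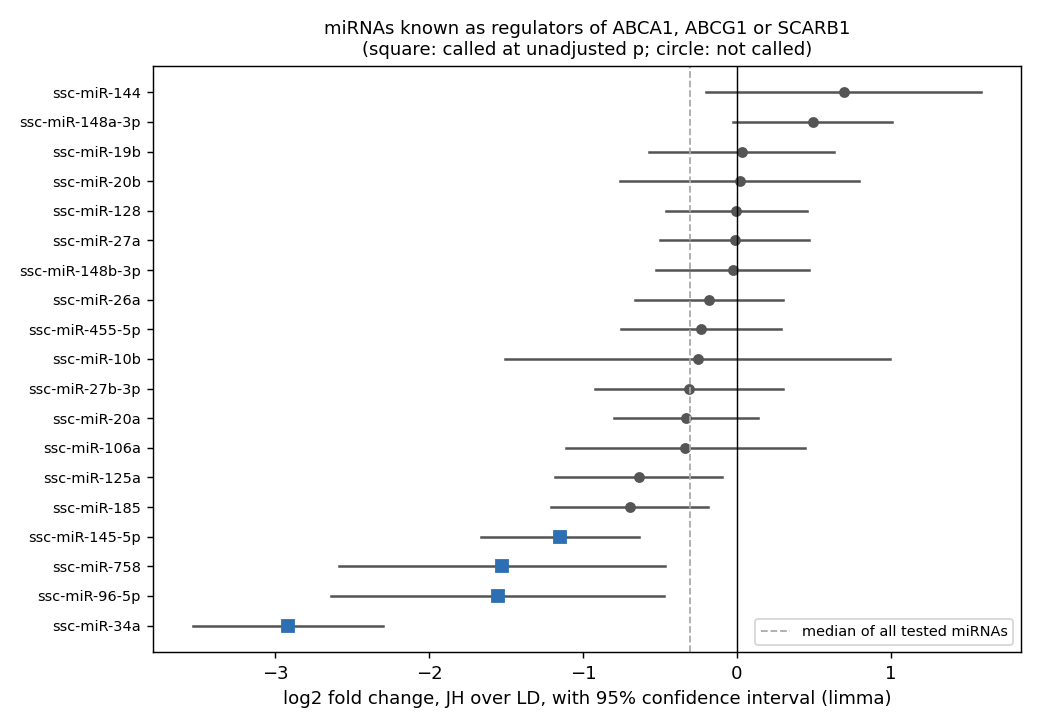
log2 fold change of JH over LD on log2(RPM + 0.5) with its 95% confidence interval (horizontal axis) for the 19 tested miRNAs known to repress ABCA1, ABCG1 or SCARB1, with a dashed line at the median of all tested miRNAs, -0.30. ssc-miR-34a lies farthest to the left, and the 4 called miRNAs are drawn as squares.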

How the data were processed

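Libraries were assigned to breed and replicate from the sample labels. For mRNA, the authors aligned filtered 50 bp reads with Tophat (TopHat2 2.0.13 in the submitters' processing notes) to Sus scrofa 10.2, took gene counts from gfold, and deposited them as RPKM. For miRNA, the authors annotated filtered reads against miRBase and other databases and deposited RPM, scaled to clean reads. The authors used edgeR for miRNAs and DEGseq for genes.

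The members and lists were chosen with earlier results of these data known. Tested features had 3 or more libraries at or above an RPKM of 0.5 or an RPM of 1. limma 3.58.1 (R 4.3.3; lmFit, eBayes with a trend) was run on log2(RPKM + 0.1) and log2(RPM + 0.5), without a block. Tables and plots were made with Python 3.11.15, pandas 2.3.3, scipy 1.17.1 and matplotlib 3.10.9. Reads were recovered as the smallest whole numbers that the 6 values of a gene allowed (99.0% of genes above 0), and all 953 low miRNA values checked were within 0.01 of a whole read. Scripts were tested on simulated data. Intervals from reads cover counting error only. A count test planned for recovered reads was replaced by voom, since no deposited file holds counts. The labels do not say whether matching replicate numbers pair the pigs. Correlations of deviations between same-numbered libraries were -0.0163, 0.0516 and 0.177 for mRNA, and so few pigs cannot decide it. The named genes were all members, each pathway list's called genes and its 2 others of lowest p, every listed miRNA, and the 3 genes most like each member. CYP51A1 is listed as CYP51. Some genes of the lists are not reported here by name.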

Additional observations from a re-analysis of the deposited data

How the results depend on the processing

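Of the 6 measured genes 0 were called under every alternative, left-out libraries included. The number whose breeds do not overlap was 3 to 4 without 1 library. Fewer pigs separate more easily, and the share of all tested genes was not computed for these fits, so this count does not show stability. The log2 fold changes of INSIG1, ABCA1, ABCG5, ABCG8 and SCARB1 kept their sign in all 14 alternatives. That of ABCG1 was 0.048 after quantile normalization and ran from -0.35 to 0.24 without 1 library. The difference in ABCG5 to ABCG8 ratio ran from -0.59 to 0.25 in the same way. Of all genes, 199 (83 higher and 116 lower in JH) were called with a pseudocount of 0.01 and 200 (76 higher) without a filter, and 79 to 406 without 1 library (41 to 176 higher, 38 to 230 lower), against 310. voom on recovered reads, chosen after seeing the data, called 406 genes (167 higher, 239 lower), 34 miRNAs and 4 of the listed miRNAs.

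Of all miRNAs, 14 (2 higher, 12 lower) were called with a pseudocount of 5, with 8 higher and 12 lower after quantile normalization and 10 higher and 10 lower after median scaling. With an adjusted p 23 were called, 2 higher and 21 lower. Leaving out 1 library gave 28 to 38 calls, 3 to 5 higher and 24 to 33 lower. Of the listed miRNAs 2 were called with a pseudocount of 5, after median scaling or with an adjusted p, and 4 to 5 without 1 library. Signs turned after quantile normalization for ssc-miR-148b-3p (0.32), ssc-miR-27a (0.38), ssc-miR-128 (0.29), ssc-miR-20a (0.094) and ssc-miR-10b (0.055). After median scaling these gave 0.37, 0.38, 0.39, 0.065 and 0.14, and ssc-miR-27b-3p gave 0.084, ssc-miR-106a 0.059, ssc-miR-26a 0.21 and ssc-miR-455-5p 0.16. Without 1 library ssc-miR-148b-3p ran from -0.13 to 0.12, ssc-miR-27a from -0.12 to 0.11, ssc-miR-128 from -0.075 to 0.083, ssc-miR-20b from -0.35 to 0.25, ssc-miR-19b from -0.18 to 0.28 and ssc-miR-10b from -0.86 to 0.47. The cause was not tested.

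The replicate block, a fit with the replicate number as a factor, called 253 genes (114 higher, 139 lower) and 29 miRNAs (4 higher, 25 lower), and 0 of the 6 genes (lowest adjusted p = 0.1, limma). Under it TM7SF2 (adjusted p = 0.0505, limma) and EBP (0.0607) were not called. Only replicate 3 of the mRNA libraries correlated best with its own number. The 3 pigs a breed and the few reads of ABCG5, ABCG1, ssc-miR-758 and ssc-miR-96-5p limit what can be told. The planned promoter search was not run, since no promoter sequences were used here.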
